A study of Mus musculus with 18 samples.

Results

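The genes described here are 9 regulators of PI3K, AKT and mTOR signaling: Pik3cd, Pik3r1, Pik3ip1, Inpp5d, Phlpp1, Akt1, Tsc1, Ddit4 and Sesn1. They were chosen by name, as 9 of the 37991 genes listed in the count tables, and all 9 were among the 17240 genes tested. RNA-seq had been performed on splenic CD4 T cells of Tg4-H2u mice, aged 6 to 12 weeks, whose T cells carry a transgenic receptor for a myelin basic protein peptide. Tolerized mice (T) had received escalating subcutaneous doses of the 4Y peptide every 3 to 4 days, and control mice (N, called naive here) had received PBS on the same schedule. Cells were taken without stimulation, 2 h after a last injection of PBS (N0 and T0), or 2 h after a last injection of the peptide antigen (Ag, groups NAg and TAg). Others were taken after 2 h of culture with PMA and the calcium ionophore A23187, together called PI (NPI and TPI). Each of the 6 groups had 3 libraries. All 6 groups carry the transgene and were enriched but not sorted, and N0 and T0 were not cultured, so that culture and PI cannot be told apart.

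Class I PI3K is a lipid kinase made of a catalytic and a regulatory subunit, and in T cells it is switched on by the antigen receptor and CD28 to make the membrane lipid PIP3. PIP3 recruits the kinase AKT, which holds FOXO transcription factors out of the nucleus and relieves the brake that the TSC complex puts on the growth kinase complex mTORC1. The pathway is restrained by lipid phosphatases, by phosphatases of AKT and by stress-induced proteins that keep mTORC1 off, whereas PMA and ionophore bypass the antigen receptor.

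After Ag, the subunits Pik3cd and Pik3r1, the inhibitors Pik3ip1, Ddit4 and Sesn1 and the phosphatase Inpp5d fell in both naive and tolerized cells, whereas Akt1 rose. After PI, Phlpp1 rose 4.0-fold in naive and 4.57-fold in tolerized cells, and Pik3ip1 and Ddit4 fell 4.81-fold and 4.92-fold in tolerized cells. Pik3cd was 2.0-fold higher in TAg than in NAg, but 1.71-fold lower in TPI than in NPI. In NAg against N0, 2 members were higher and 6 lower, where 32.1% and 33.4% of all tested genes were (edgeR's quasi-likelihood test, adjusted p under 0.05, here called passing). In TAg against T0, 2 were higher and 6 lower, against 29.9% and 29.8% of all genes. In NPI against N0, 3 were higher and 3 lower, against 28.6% and 32.7%. In TPI against T0, 3 were higher and 5 lower, against 32% and 36.3%. Most tested genes passed after either stimulus, so the shares of members passing are to be read against these backgrounds.

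The 18 libraries held between 10758571 and 24119489 counted reads, and the lowest count of any member in any library was 83 reads, for Pik3ip1. Levels are given as normalized read counts, which are the counts divided by library sizes scaled with TMM factors. Those factors ran from 0.736 to 1.38, and were lowest in TPI and highest in T0. Without them, scaled to the library totals alone, the median gene was 0.65 lower on the log2 scale in NPI than in N0 and 0.92 lower in TPI than in T0, compared with 0.06 and 0.10 lower with them. The changes below are therefore relative to the bulk of genes. The summed T cell markers (6 genes) were at 22313 to 27999 normalized counts at rest, 11886 to 19168 after Ag and 45881 to 51047 after PI. All 6 had lower means after Ag. After PI the sum was carried by Cd28, with a mean of 4260 in N0 and 26002 in NPI and of 4032 in T0 and 26034 in TPI, whereas the means of Cd3d, Cd3g and Cd4 were lower than at rest (Cd4 6943 in N0 and 5114 in NPI). Markers of neutrophils (8 genes) summed to 58.5 to 339 in all naive groups, 1684 to 3651 in T0 and TAg and 396 to 673 in TPI. The sum in TPI was carried by Mpo, with a mean of 388. Macrophage or monocyte markers (8 genes) summed to 456 to 642 in N0 and 1302 to 1662 in T0, with NAg replicate 1 at 1501 apart from the other NAg libraries at 509 and 521. The rise at rest was carried by Lyz2, with a mean of 207 in N0 and 1082 in T0. Csf1r (134 and 205) and Cd14 (2.71 and 8.11) were also higher in T0, whereas the means of C1qa, C1qb, C1qc, Adgre1 and Cd68 were lower (C1qc 22.5 in N0 and 6.68 in T0). Erythroid markers (7 genes) summed to 42.8 to 194 in N0 and 238 to 2036 in T0, with T0 replicate 1 at 2036 and TAg replicate 3 at 1327 standing apart. Member values with scores of erythroid and myeloid markers as covariates are given beside the calls that they end. The myeloid score did not overlap between N0 (−0.82 to −0.30) and T0 (1.43 to 1.90), or between NPI (−2.76 to −2.02) and TPI (−0.73 to −0.08). It also did not overlap between rest and PI in either cell state, or between NAg and TAg. Score and group can hardly be told apart in these comparisons, so a call lost there shows no cause. In such bulk samples fewer cells of a type and less RNA per cell cannot be told apart. Reads from Y-linked genes marked 2 of the 3 T0 libraries, 1 of the 3 TAg libraries and all NPI and TPI libraries as male, so that sex and PI cannot be told apart in NPI against N0. Sex as a covariate was estimated from T0 and TAg alone, the only groups with both sexes, and carried over to naive cells. Values with it therefore cannot separate sex from PI in NPI against N0.

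**Figure D1:**
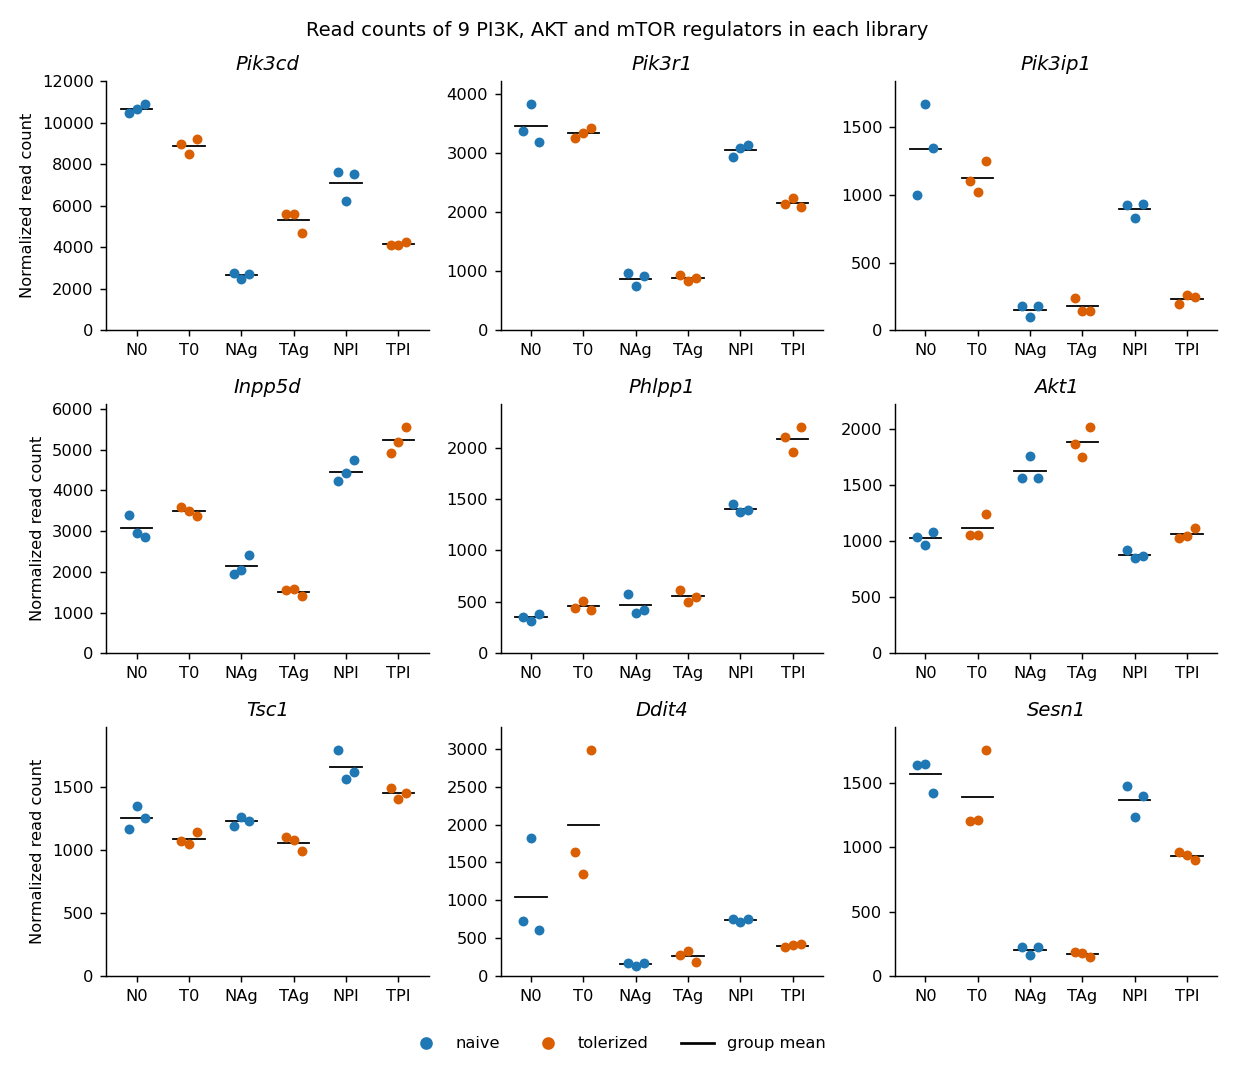
Normalized read counts (linear axis from 0) of each of the 9 genes in the 18 libraries, with the 3 replicates of each group as points and the group mean as a line. Pik3cd was lowest in NAg (2489 to 2759), Phlpp1 was highest in TPI (1954 to 2203), and Sesn1 was between 151 and 225 in all 6 Ag libraries.

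Pik3cd encodes p110 delta, the main catalytic PI3K subunit of lymphocytes (ENSMUSG00000039936, chromosome 4, 149023277 to 149076680 on the minus strand, NCBIM37, protein coding, 32 merged exons). It was the most abundant member per length, at a mean of 1034 normalized counts per kb over the groups. Its normalized counts were 10479, 10670 and 10923 in N0 and 8961, 8492 and 9218 in T0. After Ag they were 2759, 2489 and 2720 in NAg and 5592, 5633 and 4677 in TAg. After PI they were 7619, 6227 and 7515 in NPI and 4130, 4120 and 4264 in TPI. No group overlapped another, and all 5 neighbours in the order N0, T0, NPI, TAg, TPI, NAg differed by the test, T0 from N0 with the largest adjusted p of 0.0198. Pik3cd fell 4.02-fold in naive cells after Ag (log2 −2.01 ± 0.08 SE, adjusted p = 1.47e-16) but 1.68-fold in tolerized cells (−0.75 ± 0.08, adjusted p = 1.42e-08). After PI the order was turned, with a fall of 1.5-fold in naive cells (adjusted p = 7.63e-07) and 2.13-fold in tolerized cells (adjusted p = 1.59e-11). The T cell marker sum also fell after Ag, to 11886 to 13547 in NAg from 26650 to 27999 in N0, and to 16555 to 19168 in TAg from 22313 to 26717 in T0, and its part in the falls of Pik3cd and the other members was not tested.

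Pik3r1 encodes the p85 alpha regulatory subunit, which binds, stabilizes and holds in check the catalytic subunit (ENSMUSG00000041417, chromosome 13, 102450716 to 102538172, minus strand, 18 merged exons). It shares 48 bases of exon with Gm11016 on the opposite strand, and whether the counting used strand is not given in the sources used here. Its normalized counts were 3372, 3831 and 3183 in N0, 3259, 3344 and 3423 in T0, 968, 751 and 912 in NAg and 938, 843 and 885 in TAg. They were 2929, 3087 and 3134 in NPI and 2133, 2231 and 2081 in TPI. Naive and tolerized libraries overlapped at rest and after Ag, but not after PI. Pik3r1 fell 3.95-fold in naive cells (log2 −1.98 ± 0.08, adjusted p = 2.6e-16) and 3.76-fold in tolerized cells after Ag (−1.91 ± 0.08, adjusted p = 8.66e-16). After PI it fell 1.56-fold in tolerized cells (−0.64 ± 0.08, adjusted p = 1.63e-07). With scores of erythroid and myeloid markers as covariates this change was −0.30 (adjusted p = 0.165). In naive cells the change of −0.18 ± 0.08 missed the threshold (adjusted p = 0.0511), passing without N0 replicate 1 (−0.25, adjusted p = 0.0211) or N0 replicate 3 (−0.28, adjusted p = 0.00753). Scaled to library totals, where the median gene was 0.65 lower, it passed at −0.76 (adjusted p = 2.17e-08).

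Pik3ip1 encodes a transmembrane protein that binds p110 and inhibits PI3K (ENSMUSG00000034614, chromosome 11, 3230404 to 3242974, plus strand, 6 merged exons, 91 bases of exon shared with the non-coding Gm12592 on the opposite strand). Normalized counts of Pik3ip1 were 996, 1670 and 1347 in N0 and 1098, 1022 and 1251 in T0. They were 179, 97.5 and 181 in NAg and 242, 147 and 144 in TAg, with both Ag groups far below both resting groups. In NPI they were 924, 829 and 931, and in TPI 193, 261 and 248, so that TPI overlapped TAg and lay below every NPI library. Pik3ip1 fell 8.75-fold in NAg (log2 −3.13 ± 0.26, adjusted p = 6.78e-08), 6.31-fold in TAg (−2.66 ± 0.25, adjusted p = 3.99e-07) and 4.81-fold in TPI (−2.27 ± 0.24, adjusted p = 1.2e-06). In NPI it was 1.49-fold lower than in N0 (−0.58 ± 0.22, adjusted p = 0.0362), a call that was lost when any of 5 single libraries was left out, with adjusted p from 0.0568 without N0 replicate 3 to 0.121 without N0 replicate 2 and 0.0659, 0.101 and 0.0652 without NPI replicates 1, 2 and 3. It was also lost with marker scores (−0.37) or sex (−0.27) as covariates.

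Inpp5d encodes SHIP1, the lipid phosphatase of blood cells that turns PIP3 over (ENSMUSG00000026288, chromosome 1, 89516887 to 89617082, plus strand, 29 merged exons). Inpp5d stood at normalized counts of 3392, 2944 and 2863 in N0, 3599, 3498 and 3377 in T0, 1946, 2038 and 2422 in NAg and 1560, 1568 and 1403 in TAg. The counts were 4224, 4416 and 4736 in NPI and 4928, 5188 and 5565 in TPI, above all other groups. Inpp5d thus fell after Ag, 1.44-fold in naive cells (log2 −0.52 ± 0.08, adjusted p = 5.36e-06) and 2.31-fold in tolerized cells (−1.21 ± 0.08, adjusted p = 5.26e-12). After PI it was 1.45-fold higher in naive cells (0.54 ± 0.08, adjusted p = 3.8e-06) and 1.5-fold higher in tolerized cells (0.58 ± 0.08, adjusted p = 9.45e-07) relative to the bulk of genes. Scaled to library totals the direction after PI turned, to −0.04 in naive cells (adjusted p = 0.706) and −0.22 in tolerized cells, which passed (adjusted p = 0.0262). Both falls after Ag remained there (−0.93 and −1.54).

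Phlpp1 encodes a phosphatase that takes the activating phosphate off AKT (ENSMUSG00000044340, chromosome 1, 108068329 to 108290827, plus strand, 18 merged exons). Its normalized counts were 353, 315 and 384 in N0 and 443, 504 and 421 in T0, and after PI they reached 1451, 1372 and 1389 in NPI and 2105, 1954 and 2203 in TPI. The NPI and TPI libraries lay above all others and apart from each other. Phlpp1 rose 4.0-fold in naive cells (log2 2.0 ± 0.12, adjusted p = 1.4e-12) and 4.57-fold in tolerized cells after PI (2.19 ± 0.11, adjusted p = 1.08e-13), and remained higher when scaled to library totals (1.42 and 1.39). After Ag the counts were 579, 394 and 425 in NAg and 616, 501 and 551 in TAg. These rises were small, 0.41 ± 0.12 in naive cells (adjusted p = 0.00446) and 0.29 ± 0.11 in tolerized cells (adjusted p = 0.036). Scaled to library totals they came to 0.0071 and −0.05 and no longer passed. The naive call was also lost with marker scores as covariates (0.29, adjusted p = 0.103) and without N0 replicate 2 (0.29, adjusted p = 0.0727) or NAg replicate 1 (0.22, adjusted p = 0.0761). The tolerized call was lost without T0 replicate 1 or 3 (0.23 and 0.20) or TAg replicate 1 or 3 (0.20 and 0.29), with adjusted p from 0.0656 to 0.212. In a model of only the groups compared neither Ag call passed (0.36 in naive and 0.25 in tolerized cells, adjusted p = 0.0588 and 0.0553).

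Akt1 encodes a kinase that carries the PI3K signal to mTORC1 and the FOXO factors (ENSMUSG00000001729, chromosome 12, 113892032 to 113913095, minus strand, 16 merged exons). Normalized counts of Akt1 were 1035, 963 and 1082 in N0, 1053, 1056 and 1245 in T0, 1559, 1755 and 1563 in NAg and 1870, 1748 and 2021 in TAg. After PI they were 925, 848 and 864 in NPI and 1033, 1046 and 1118 in TPI. The Ag groups lay above all others but overlapped each other. Akt1 rose 1.58-fold in naive cells (log2 0.66 ± 0.08, adjusted p = 6.93e-08) and 1.68-fold in tolerized cells after Ag (0.75 ± 0.08, adjusted p = 1e-08), and was also higher when scaled to library totals (0.26 and 0.42). After PI the change in tolerized cells was −0.07 ± 0.08 (adjusted p = 0.453, 95% interval −0.23 to 0.10). Scaled to library totals, where the median gene was 0.92 lower, it was −0.86 and passed (adjusted p = 4.86e-10). In naive cells Akt1 was 1.17-fold lower after PI (−0.22 ± 0.08, adjusted p = 0.0188). This naive call was lost without NPI replicate 2 or 3 (−0.20 and −0.21, adjusted p = 0.0663 and 0.0566) and with sex as a covariate (−0.19, adjusted p = 0.18). With marker scores the difference was larger, −0.33, but did not pass (adjusted p = 0.0797).

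Tsc1 encodes hamartin, a core subunit of the TSC complex that restrains mTORC1 (ENSMUSG00000026812, chromosome 2, 28496748 to 28546687, plus strand, 22 merged exons). It moved least of the 9, with group means between 1059 ± 60.2 in TAg and 1662 ± 122 in NPI (normalized count, SD, n = 3), a 1.57-fold range. Its normalized counts were 1169, 1352 and 1258 in N0 and 1196, 1263 and 1232 in NAg, and 1070, 1048 and 1148 in T0 and 1105, 1080 and 991 in TAg. Resting and Ag libraries overlapped in both cell states, with changes of −0.03 (adjusted p = 0.702, 95% interval −0.18 to 0.12) and −0.04 (adjusted p = 0.66, −0.19 to 0.11). After PI the counts were 1800, 1567 and 1620 in NPI and 1492, 1407 and 1456 in TPI, higher than at rest by 0.40 ± 0.07 (adjusted p = 3.46e-05) and 0.42 ± 0.07 (adjusted p = 1.77e-05). Scaled to library totals these PI changes turned to −0.18 and −0.38 and passed (adjusted p = 0.0176 and 1.28e-05). The Ag changes there became −0.44 and −0.37 and passed (adjusted p = 2.83e-06 and 3.08e-05). With marker scores as covariates the PI changes were 0.21 and 0.19 and did not pass (adjusted p = 0.206 and 0.359).

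Ddit4 encodes REDD1, a stress-induced protein that acts through the TSC complex to turn mTORC1 off (ENSMUSG00000020108, chromosome 10, 59412423 to 59414518, minus strand, 3 merged exons). It varied most among resting replicates, with normalized counts of 726, 1819 and 608 in N0 and 1640, 1347 and 2989 in T0, a coefficient of variation of 63.5% and 44%. After Ag the counts were 169, 129 and 174 in NAg and 282, 330 and 191 in TAg, below every resting library. After PI they were close together within each group, at 759, 713 and 752 in NPI and 384, 410 and 420 in TPI. Ddit4 fell 6.66-fold in NAg (log2 −2.74 ± 0.44, adjusted p = 1e-04), and by 2.13 on the log2 scale without N0 replicate 2. It fell 7.47-fold in TAg (−2.90 ± 0.42, adjusted p = 4.18e-05) and 4.92-fold in TPI (−2.30 ± 0.40, adjusted p = 0.000189). In NPI the change was −0.50 ± 0.38 (adjusted p = 0.28, 95% interval −1.34 to 0.33), with N0 and NPI overlapping, and it turned to 0.10 without N0 replicate 2 and to 0.38 with sex as a covariate. Scaled to library totals, where the median gene was 0.65 lower, the NPI change was −1.07 and passed (adjusted p = 0.0199). With marker scores as covariates the TPI change was −2.0 and did not pass (adjusted p = 0.132).

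Sesn1 encodes sestrin 1, which passes amino acid shortage to mTORC1 through the GATOR complexes (ENSMUSG00000038332, chromosome 10, 41530380 to 41628230, plus strand, 11 merged exons). Sesn1 stood at normalized counts of 1642, 1652 and 1422 in N0, 1207, 1215 and 1760 in T0, 225, 164 and 224 in NAg and 186, 178 and 151 in TAg. The counts were 1480, 1233 and 1403 in NPI and 965, 941 and 905 in TPI. The NPI libraries overlapped N0, and the TPI libraries lay below both T0 and NPI. Sesn1 fell 7.67-fold in naive cells (log2 −2.94 ± 0.15, adjusted p = 2.43e-12) and 8.14-fold in tolerized cells after Ag (−3.02 ± 0.15, adjusted p = 3.09e-12). After PI it fell 1.49-fold in tolerized cells (−0.57 ± 0.13, adjusted p = 0.000814), and in naive cells the change was −0.20 ± 0.13 (adjusted p = 0.204). Scaled to library totals, where the median gene was 0.65 lower, the naive change was −0.77 and passed (adjusted p = 4.95e-06), and with sex as a covariate it was 0.25 (adjusted p = 0.14). With marker scores as covariates the tolerized change was −0.25 and did not pass (adjusted p = 0.589).

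Since Pik3ip1, Sesn1 and Ddit4 fell together after Ag, their start regions were read from the RefSeq promoter table (GRCm38.p6, 250 bases before to 50 after each start), which holds 1 start each for Pik3ip1 and Ddit4 and 2 for Sesn1. Both strands were searched for the forkhead motif GTAAACA, bound by FOXO factors, for the AP-1 motif TGANTCA, the E-box CACGTG, the cyclic AMP response element core TGACGT and the ATF4 composite core TTGCATC, none of which overlapped another match. The only match was the forkhead motif at Sesn1, on the minus strand. It lay past the first of its starts, at bases 23 to 29 counting the start as 1, and not in the 250 bases before it. Of the 32851 promoters in the table, 3.65% held the forkhead motif, 7.81% AP-1, 7.15% the E-box, 7.51% the response element core and 2.53% the ATF4 core. The Sesn1 match is shown with 10 bases on either side and the motif in capitals (chr10:41810586-41810612, plus strand), and the 250 bases before the Pik3ip1 start (chr11:3330481-3330730, plus strand) and the Ddit4 start (chr10:59951771-59952020, minus strand) follow without capitals, since no motif was found in them.
Sesn1: aaccttctacTGTTTACcagccttttg
Pik3ip1: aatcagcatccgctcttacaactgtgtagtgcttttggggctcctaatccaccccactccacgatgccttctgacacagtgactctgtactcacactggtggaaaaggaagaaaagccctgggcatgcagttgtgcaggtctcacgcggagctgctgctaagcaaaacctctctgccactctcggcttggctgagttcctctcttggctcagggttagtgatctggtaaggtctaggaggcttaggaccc
Ddit4: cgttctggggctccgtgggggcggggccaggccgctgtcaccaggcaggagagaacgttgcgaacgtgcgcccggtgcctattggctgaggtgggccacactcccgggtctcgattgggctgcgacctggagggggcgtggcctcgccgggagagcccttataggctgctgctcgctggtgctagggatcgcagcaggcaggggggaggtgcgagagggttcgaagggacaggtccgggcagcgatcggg
The 300-base windows were 54.7% G or C at Pik3ip1 and 69% at Ddit4, and 66.7% and 71% at the 2 Sesn1 starts, with a median of 52.7% over all promoters.

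**Figure D2:**
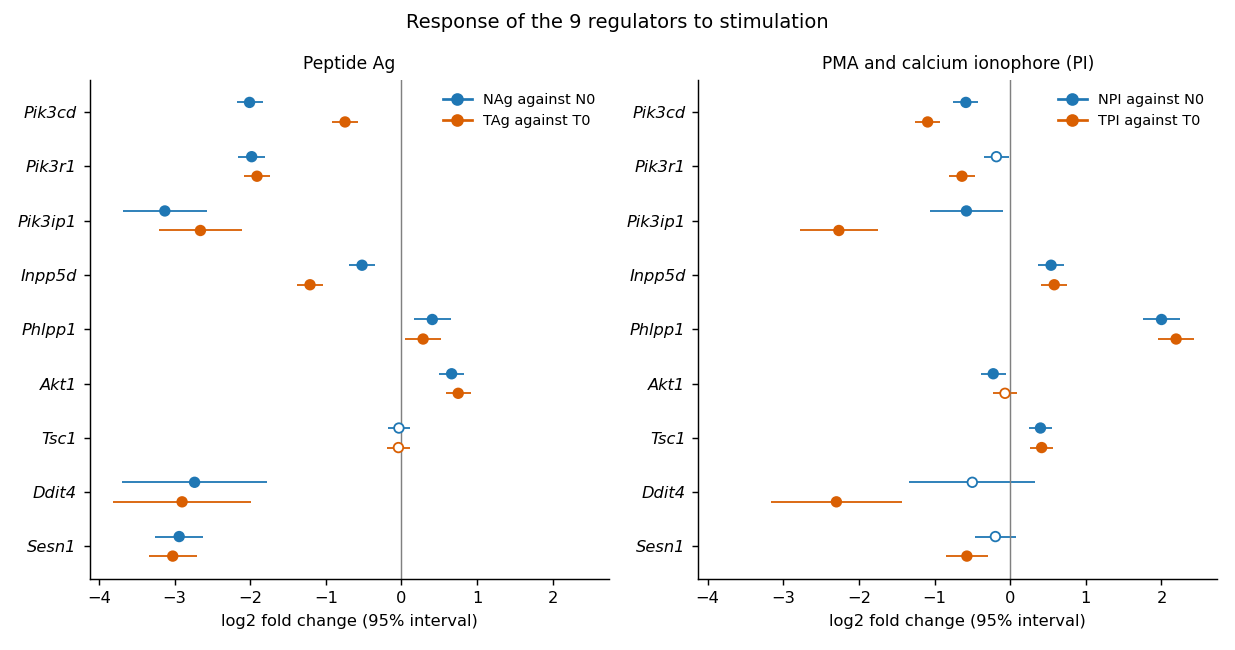
Log2 fold changes (points) with 95% intervals (lines) of the 9 genes after Ag, left, and after PI, right, in naive and tolerized cells, with filled points for adjusted p under 0.05. After Ag, Pik3r1 lay at −1.98 and −1.91 and Sesn1 at −2.94 and −3.02 in naive and tolerized cells, whereas after PI the changes of Pik3ip1 (−0.58 and −2.27) and Ddit4 (−0.50 and −2.30) lay apart.

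The comparison of tolerized with naive cells asks how tolerance changes the pathway at rest and under each stimulus. At rest, T0 differed from N0 in few members, with 1 higher and 2 lower where 8.42% and 12% of all tested genes were. Phlpp1 was 1.30-fold higher (log2 0.38 ± 0.12, adjusted p = 0.0247), Pik3cd 1.2-fold lower (−0.27 ± 0.08, adjusted p = 0.0198) and Tsc1 1.16-fold lower (−0.21 ± 0.07, adjusted p = 0.0411). None of these calls held in libraries of the same sex (0.26, −0.21 and −0.13) or with scores of erythroid and myeloid markers as covariates (0.11, −0.20 and 0.05), and those of Pik3cd and Tsc1 were lost when scaled to library totals (−0.16 and −0.10). Each was also lost without single libraries, Phlpp1 without N0 replicate 1 or 2 or T0 replicate 1 or 2 (adjusted p 0.0648, 0.148, 0.0652 and 0.153), Pik3cd without N0 replicate 3 or T0 replicate 2 (0.0646 and 0.0813) and Tsc1 without N0 replicate 2 or 3 or T0 replicate 1 or 2 (0.181, 0.0845, 0.112 and 0.129). The largest difference in size, Ddit4 at 0.92 ± 0.38, did not pass (adjusted p = 0.108, 95% interval 0.10 to 1.74) but did without N0 replicate 2 (1.57, adjusted p = 0.00551) and with sex as a covariate (1.43, adjusted p = 0.0326). Without T0 replicate 3, Sesn1 passed at −0.38 (adjusted p = 0.00988), and without N0 replicate 1, Inpp5d passed at 0.26 (adjusted p = 0.0365).

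After Ag, 2 members were higher and 2 lower in TAg than in NAg, against 20.9% and 18.5% of all genes. Pik3cd was 2.0-fold higher (log2 1.0 ± 0.08, adjusted p = 1.74e-09) and Inpp5d 1.41-fold lower (−0.50 ± 0.08, adjusted p = 4.76e-05), and both differences held with marker scores as covariates (1.02 and −0.50) and in libraries of the same sex (1.08 and −0.45). Akt1 at 0.21 ± 0.08 (adjusted p = 0.0367) and Tsc1 at −0.22 ± 0.07 (adjusted p = 0.0209) passed narrowly. Akt1 did not pass without NAg replicate 1 or 3 or TAg replicate 1 or 3 (adjusted p = 0.104, 0.124, 0.0738 and 0.174), and Tsc1 did not without NAg replicate 2 or TAg replicate 3 (0.0713 and 0.106). Neither passed in libraries of the same sex (0.15 and −0.17) or with marker scores (0.27 and −0.09). The falling genes Pik3r1 (0.02, 95% interval −0.16 to 0.19), Pik3ip1 (0.22, −0.39 to 0.83) and Sesn1 (−0.26, −0.61 to 0.09) did not pass. Neither did Ddit4 (0.76, −0.26 to 1.78, adjusted p = 0.23), whose replicates did not overlap and which passed in a model of only the groups compared (0.78, adjusted p = 0.0138). Phlpp1 did not pass at 0.26 (adjusted p = 0.0838) but did without NAg replicate 1 (0.45, adjusted p = 0.00165) or TAg replicate 2 (0.33, adjusted p = 0.0484).

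After PI, 3 members were higher and 5 lower in TPI than in NPI, against 18.2% and 19.7% of all genes. Pik3ip1 was 3.83-fold lower (log2 −1.94 ± 0.24, adjusted p = 2.33e-05), Pik3cd 1.71-fold lower (−0.77 ± 0.08, adjusted p = 5.94e-08), Sesn1 1.47-fold lower (−0.55 ± 0.13, adjusted p = 0.00261) and Pik3r1 1.42-fold lower (−0.51 ± 0.08, adjusted p = 2.07e-05). Phlpp1 was 1.49-fold higher (0.57 ± 0.11, adjusted p = 0.000166) and Akt1 1.21-fold higher (0.28 ± 0.08, adjusted p = 0.00755). Only 1.5% of tested genes had a lower log2 fold change than Pik3ip1 in this comparison. Tsc1 (−0.20, adjusted p = 0.0338) and Inpp5d (0.23, adjusted p = 0.0292) passed narrowly, and both calls were lost without NPI replicate 1 (−0.13 and 0.20), TPI replicate 2 (−0.17 and 0.23) or TPI replicate 3 (−0.20 and 0.18), that of Tsc1 also without TPI replicate 1 (adjusted p = 0.0591) and that of Inpp5d without NPI replicate 2 (0.0692). Both were also lost with marker scores as covariates, where Tsc1 turned to 0.02 and Inpp5d was 0.23 (adjusted p = 0.947 and 0.43). Scaled to library totals, Inpp5d (0.12) and Akt1 (0.17) no longer passed. Ddit4 was 0.87 lower on the log2 scale with no overlap of the replicates but did not pass (adjusted p = 0.107), and it passed in a model of only the groups compared (−0.85, adjusted p = 1.09e-07). With erythroid and myeloid scores as covariates Pik3cd, Pik3r1 and Pik3ip1 passed (−0.71, −0.76 and −2.10), and Sesn1, Phlpp1 and Akt1 did not (adjusted p = 0.113, 0.378 and 0.144). There Sesn1 (−0.74) and Akt1 (0.36) were farther from 0 than without the scores, and Phlpp1 (0.33) was nearer.

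**Figure D3:**
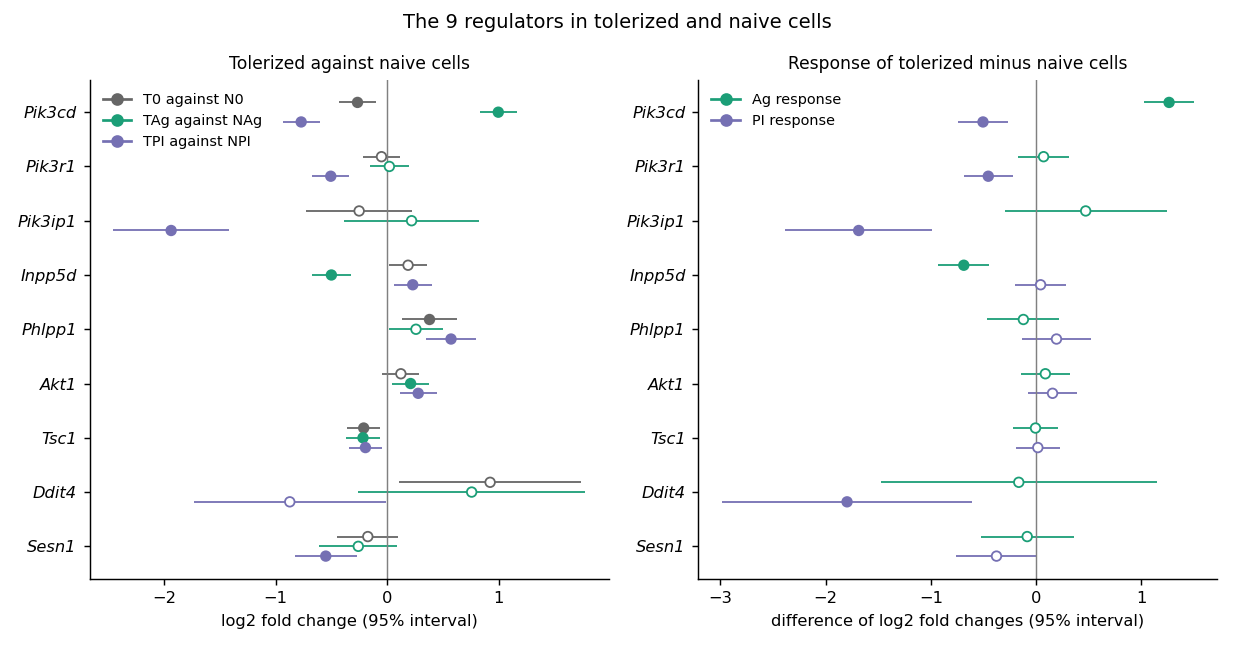
Log2 fold changes of tolerized against naive cells (left) at rest, after Ag and after PI, and the difference between the responses of tolerized and naive cells (right), with 95% intervals and filled points for adjusted p under 0.05. Pik3cd lay to the right for Ag (1.0 and 1.26) and to the left for PI (−0.77 and −0.51).

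Whether the response itself differed between the cell states was tested as the difference of the log2 fold changes. For Ag, Pik3cd was higher by 1.26 ± 0.11 (adjusted p = 2.61e-08) and Inpp5d lower by 0.69, with an SE of 0.12 (adjusted p = 0.000138), that is 1 member higher and 1 lower, against 14.6% and 7.09% of all genes. Both held with marker scores (1.23 and −0.69), with sex as a covariate (1.20 and −0.70), in libraries of the same sex (1.29 and −0.59) and scaled to library totals (1.33 and −0.62). For PI, 4 members had a lower response in tolerized cells and 0 a higher one, against 7.52% and 12.7% of all genes. These were Pik3ip1 (−1.69 ± 0.32, adjusted p = 0.00219), Ddit4 (−1.80 ± 0.55, adjusted p = 0.0356), Pik3cd (−0.51 ± 0.11, adjusted p = 0.00214) and Pik3r1 (−0.46 ± 0.11, adjusted p = 0.00513). The PI difference contains NPI against N0, in which sex and PI cannot be told apart. Over the alternatives, sex as a covariate among them, and with single libraries left out, the calls of Pik3ip1 (−1.90 to −1.49), Pik3cd (−0.73 to −0.45) and Pik3r1 (−0.68 to −0.38) held. The sex covariate rests on T0 and TAg alone, so values with it cannot separate sex from PI in naive cells. The call of Ddit4 was lost without any 1 of N0 replicates 1 and 3, T0 replicate 3 and all NPI and TPI replicates (adjusted p from 0.0545 to 0.0813), and with marker scores (−1.69, adjusted p = 0.0617), and its size ran from −1.36 without T0 replicate 3 to −2.43 without N0 replicate 2. The PI difference of Sesn1 (−0.38, adjusted p = 0.173) passed with sex as a covariate (−0.65, adjusted p = 0.00224) and scaled to library totals (−0.59, adjusted p = 0.0105). Of the members, Pik3cd alone passed in both tests of the response, with opposite signs.

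The levels of the 9 genes could be compared only per length. As means over the 6 groups, Pik3cd stood at 1034 normalized counts per kb of merged exon, followed by Ddit4 at 456, Inpp5d at 436, Pik3r1 at 310, Akt1 at 309, Sesn1 at 283, Pik3ip1 at 153, Phlpp1 at 132 and Tsc1 at 109. In NAg the order was changed, with Pik3cd at 424 ± 23.3, Akt1 at 397 ± 27.3, Inpp5d at 281 ± 33.2 and Pik3r1 at 119 ± 15.3 counts per kb (SD, n = 3), and Pik3ip1 at the foot of the list with 35.7 ± 11.2. In TPI Inpp5d at 688 ± 42.1 and Pik3cd at 666 ± 12.8 stood side by side above Phlpp1 at 310 ± 18.7.

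Of 62 other genes of the pathway, from the PI3K subunits to the FOXO factors, 61 were tested and Ddit4l was not. In NAg against N0, 18 were higher (29.5%, all tested genes 32.1%) and 33 lower (54.1%, all 33.4%). In TAg against T0, 16 were higher (26.2%, all 29.9%) and 28 lower (45.9%, all 29.8%). In NPI against N0, 16 were higher (26.2%, all 28.6%) and 24 lower (39.3%, all 32.7%), and in TPI against T0, 21 (34.4%, all 32%) and 25 (41%, all 36.3%). Of 8 genes for the other class I PI3K subunits and an adaptor, 6 fell in NAg (median of the 8 −1.67, all genes 0) and 5 in TAg (median −0.88, all genes −0.05). The adaptor gene Pik3ap1 (0.89 and 0.58) and Pik3r6 (0.67 and 0.47) did not pass in either, and Pik3ca did not pass in TAg (0.08). Of the 4 other phosphoinositide phosphatases, all 4 were lower in NAg and 2 in TAg. Mtor, the kinase of both mTOR complexes, rose by 0.73 in NAg and 0.62 in TAg (adjusted p = 2.03e-09 and 4.82e-08), and fell by 0.37 and 0.60 after PI (adjusted p = 9.94e-05 and 9.39e-08). Of 8 genes of the GATOR complexes, which relay amino acid supply, 4 were higher and 4 lower in NAg and 4 and 3 in TAg, and 0 were higher and 6 lower in NPI and 1 and 4 in TPI, where the shares of all genes are those above.

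The largest rises after Ag were those of Fnip2, a partner of folliculin, from 56.6 ± 11.2 in N0 to 805 ± 19.3 normalized counts in NAg (log2 3.82 ± 0.13, adjusted p = 5.53e-18; TAg against T0 2.92), and of the GTPase gene Rragd, from 57.0 ± 7.28 to 595 ± 40.2 (3.38 ± 0.19, adjusted p = 7.91e-13; TAg against T0 2.18). Both proteins belong to the Rag machinery that brings mTORC1 to the lysosome. Rragd rose less in tolerized cells (difference of responses −1.20 ± 0.27, adjusted p = 0.00267). Sesn2, a relative of Sesn1, rose by 0.71 in NAg and changed by −0.31 in TAg (adjusted p = 0.0556), a difference of −1.03 ± 0.20 (adjusted p = 0.000434). After PI the largest rises were Fnip1, from 1350 ± 182 to 11962 ± 1134 normalized counts in naive cells (3.15 ± 0.10, adjusted p = 1.85e-18) and 3.66 ± 0.10 in tolerized cells, and the adaptor gene Pik3ap1 (3.21 ± 0.38 and 2.67 ± 0.36). The Ragulator gene Lamtor4 fell by 2.09 and 2.11 after PI, and Tbc1d7, a subunit of the TSC complex, fell by 1.91 in NPI. Castor2, a relative of an arginine sensor, fell by 2.79 in NAg and 2.45 in TAg. Pik3ca, the p110 alpha subunit, rose after PI from 2041 ± 146 in N0 to 3303 ± 65.7 in NPI and from 1839 ± 96.1 in T0 to 5166 ± 65.7 in TPI (difference of responses 0.80 ± 0.10, adjusted p = 3.82e-06), whereas Pik3cd fell in both. Seh1l, a GATOR subunit, had the largest positive difference of this kind, 0.84 ± 0.11 (adjusted p = 9e-06).

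Between tolerized and naive cells, 7 of the 61 genes were higher and 7 lower at rest (11.5% each, all genes 8.42% and 12%). After Ag 20 were higher and 17 lower (32.8% and 27.9%, all 20.9% and 18.5%), and after PI 12 and 18 (19.7% and 29.5%, all 18.2% and 19.7%). The 14 at rest became 8, 9 and 8 without N0 replicate 2, T0 replicate 1 and T0 replicate 2, and 0 with marker scores as covariates, so that the calls at rest that follow were all lost there. At rest Pik3r6, a regulatory subunit of PI3K gamma, was higher in T0 (2.14 ± 0.38, adjusted p = 3e-04; 29.9 ± 4.98 against 6.71 ± 2.02 normalized counts), as was Phlpp2, the relative of Phlpp1 (1.11 ± 0.12, adjusted p = 1.29e-06), and Pik3r3, another regulatory subunit, was lower (−1.20 ± 0.31, adjusted p = 0.00689). Pik3r6 was also higher in TAg than in NAg (1.93 ± 0.35) and its PI response was lower in tolerized cells (−2.21 ± 0.54, adjusted p = 0.00482). Neutrophil markers were likewise higher in T0 and TAg, at 1684 to 3651 summed counts against 58.5 to 339 in N0 and NAg. After PI the neutrophil sums were 396 to 673 in TPI and 63.7 to 170 in NPI, and Pik3r6 had means of 11.6 and 12.3. The TPI sum was carried by Mpo, with means of 384 in T0 and 388 in TPI. The other neutrophil markers had lower means in TPI than in T0, among them S100a8 (600 and 16.7), Ltf (397 and 8.66) and Elane (65.7 and 52.1). The part of neutrophils in the level of Pik3r6 was not tested. After PI, Inppl1, which encodes the phosphatase SHIP2, was higher in TPI than in NPI (1.32 ± 0.27, adjusted p = 0.000754), and so was Phlpp2 (0.80 ± 0.12, adjusted p = 1.19e-05).

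FOXO factors are held out of the nucleus by AKT and activate genes of naive and circulating T cells. All 3 FOXO genes fell after Ag in both cell states, where 33.4% of all tested genes were lower in NAg and 29.8% in TAg. Foxo4 fell from 474 ± 33.1 normalized counts in N0 to 44.2 ± 24.7 in NAg (log2 −3.41 ± 0.24, adjusted p = 1.67e-09) and by 2.31 in TAg, a smaller fall (difference 1.10 ± 0.34, adjusted p = 0.0293). Foxo3 fell by 1.55 and 1.32, and Foxo1 by 0.92 in NAg but 1.74 in TAg (difference −0.82 ± 0.13, adjusted p = 3.75e-05), so that Foxo1 was lower in TAg than in NAg (−0.96 ± 0.09, adjusted p = 1.65e-08). After PI, Foxo1 rose by 0.55 and 0.61 (adjusted p = 6.95e-06 and 1.44e-06). Of 5 genes that FOXO factors activate in T cells, all 5 fell after Ag in both cell states, against the same shares of all genes. S1pr1, the receptor for exit from lymphoid organs, changed by −4.10 in NAg and −2.89 in TAg (difference 1.21 ± 0.17, adjusted p = 2.79e-05). All 5 were higher in TAg than in NAg (all genes 20.9%), and 4 of the 5 were lower in TPI than in NPI (all genes 19.7%). Among the latter were S1pr1 (−1.57 ± 0.11, adjusted p = 2.21e-09) and the regulator Klf2 (−1.48 ± 0.29, adjusted p = 0.00134). Against rest, 2 of the 5 were higher and 3 lower in NPI (all genes 28.6% and 32.7%), and 1 higher and 3 lower in TPI (all genes 32% and 36.3%). The PI response of Klf2 was lower in tolerized cells (−1.48 ± 0.41, adjusted p = 0.0225), with means of 3339 in N0 and 9330 in NPI but 3332 in T0 and 3343 in TPI. Ccr7, a lymph node homing receptor, was lower in T0 than in N0 (−0.63 ± 0.10, adjusted p = 0.000123).

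**Figure D4:**
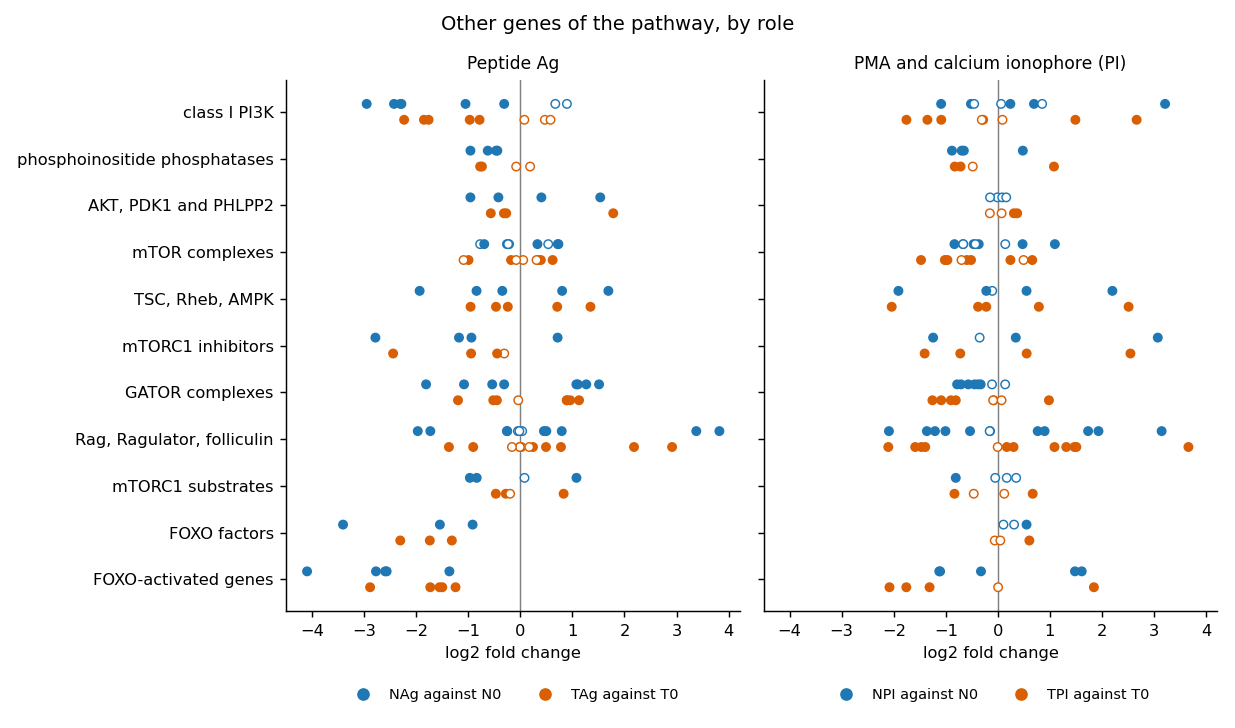
Log2 fold changes of the 61 other pathway genes tested and of 5 genes activated by FOXO factors, by role (rows), after Ag (left) and PI (right) in naive and tolerized cells, 1 point per gene, filled for adjusted p under 0.05. All FOXO factors and FOXO-activated genes lay to the left after Ag, with S1pr1 farthest at −4.10, and Fnip2 farthest to the right at 3.82.

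Over the 18 libraries, the levels of Pik3r1 and Sesn1 ran most closely together among the members (Pearson r = 0.988 of log2(normalized count + 1)), and those of Akt1 and Sesn1 ran most opposite (r = −0.928). These values are a description of 18 libraries that fall into 6 groups of 3 and are not independent points. Among 10360 other genes, the ones most like Pik3cd were Ikbke and Scp2 (r = 0.985 and 0.984), those most like Pik3r1 were Ivd and Zfp395 (0.994 and 0.991) and those most like Pik3ip1 were Bbs9 and Card6 (0.989 and 0.973). Inpp5d ran with Arl5c and Iqsec1 (0.971 and 0.965), Phlpp1 with Emp1 and Gna13 (0.993 and 0.982), and Akt1 with the proteasome genes Pomp and Psmb5 (0.977 and 0.974). Tsc1 ran with Ap2a2 and 3110056K07Rik (0.966 and 0.964), Ddit4 with Tsc22d3 and Acss1 (0.945 and 0.937) and Sesn1 with Ccm2 and Mkl1 (0.993 and 0.989).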

How the data were processed

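RNA-seq had been performed on 18 libraries of splenic CD4 T cells, 3 in each of 6 groups, and groups and replicate numbers were taken from the sample labels. The deposited files hold raw read counts per Ensembl gene, made by the authors with TopHat2 (2.1.1) and HTSeq (0.9.1) on mm9, per the submitters' processing notes, which also list DESeq2 (1.18) and edgeR (3.24). Whether counting used strand is not given in the sources used here. Ensembl NCBIM37 gave names, coordinates and merged exon lengths.

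Counts were scaled by TMM and tested with edgeR (4.0.16, R 4.3.3) by the robust quasi-likelihood test in 1 model of 6 groups, over the 17240 genes whose normalized counts averaged 3 or more in any group, with Benjamini-Hochberg adjustment. The test was checked on simulated data. The alternatives were DESeq2 (1.42.0), its size factors, no filter, only the groups compared, a replicate block, marker scores, sex (read from Xist and Y-linked counts) and each library left out. Same-sex libraries and library totals were added after the data were seen. Library totals ran from 10758571 to 24119489 reads. Whether libraries came from separate mice is not stated in the labels, so p-values measure the spread between these libraries. The members and lists were chosen with earlier results of these data known. Other pathway genes are named if among the 2 largest rises or falls that passed, without replicate overlap, in a comparison, plus FOXO factors and Mtor, and some genes that this rule names are not reported here. Fnip1, Sesn2, Pik3ca and others named so are also given in further comparisons.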

Additional observations from a re-analysis of the deposited data

Results flagged for a closer look

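For 6 values, the response of tolerized cells differed from that of naive cells by the test of the difference itself (edgeR's quasi-likelihood test, adjusted p under 0.05, 3 libraries in each group). For Ag these were Pik3cd, at 1.26 on the log2 scale (95% interval 1.03 to 1.5), and Inpp5d, at −0.69 (−0.93 to −0.44). For PI they were Pik3cd, at −0.51 (−0.74 to −0.27), Pik3r1, at −0.46 (−0.69 to −0.22), Pik3ip1, at −1.69 (−2.39 to −0.99), and Ddit4, at −1.80 (−2.99 to −0.61). The PI values contain NPI against N0, in which sex and PI cannot be told apart.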

How the results depend on the processing

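Of the members passing, 6 in NPI against N0, 8 in TPI against T0, 3 in T0 against N0, 4 in TAg against NAg and 8 in TPI against NPI became 3, 4, 0, 2 and 3 with marker scores as covariates. In each of these comparisons the myeloid score did not overlap between the groups, so that score and group can hardly be told apart there. T0 against N0 came to 1 with only the groups compared or with sex as a covariate, 0 in libraries of the same sex and 0 to 4 with 1 library left out, and TAg against NAg to 2 in libraries of the same sex and 2 to 5 with 1 left out. The causes were not tested. Of all genes, 11768 passed in TPI against T0, 3519 in T0 against N0, 6794 in TAg against NAg and 6537 in TPI against NPI, compared with 7128, 45, 4037 and 2042 with marker scores. T0 against N0 gave 1834 with sex as a covariate, 1458 in libraries of the same sex and 2284 without N0 replicate 2. The difference of Ag responses gave 3734 and, in libraries of the same sex, 2451. Of the other pathway genes, 14 passed in T0 against N0, compared with 8 with only the groups compared, 0 with marker scores, 7 with sex and 5 in libraries of the same sex. Marker scores took TAg against NAg from 37 to 18 and TPI against NPI from 30 to 11, and libraries of the same sex took the difference of Ag responses from 26 to 13.

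Directions turned mostly for values near 0. Among the exceptions, Tsc1 in NPI and TPI and Inpp5d in TPI passed in the opposite direction when scaled to library totals (adjusted p = 0.0176, 1.28e-05 and 0.0262). With DESeq2 and with its size factors Tsc1 in NAg was 0.020 and Pik3r1 in TAg against NAg −0.015. Scaled to library totals, Phlpp1 was −0.049 in TAg, Inpp5d −0.039 and Tsc1 −0.18 in NPI, Inpp5d −0.22 and Tsc1 −0.38 in TPI, Pik3r1 0.058 in T0 against N0, Tsc1 0.066 for the difference of Ag responses, and Inpp5d −0.18, Phlpp1 −0.031, Akt1 −0.061 and Tsc1 −0.21 for that of PI responses. With only the groups compared Pik3r1 in T0 against N0 was 0.025, and the PI differences of Inpp5d and Tsc1 −0.041 and −0.067. With marker scores Tsc1 was 0.067 in NAg, 0.048 in T0 against N0, 0.023 in TPI against NPI and −0.024 for the PI difference, Pik3r1 0.079 in NPI and −0.13 in TAg against NAg, Sesn1 0.045 in NPI and 0.060 for the Ag difference, and Phlpp1 0.026 for the latter. With sex as a covariate Ddit4 was 0.38 and Sesn1 0.25 in NPI, Sesn1 0.10 in T0 against N0 and Tsc1 −0.069 for the PI difference. In libraries of the same sex Akt1 was 0.015 in TPI, Sesn1 0.16 in T0 against N0, and the Ag differences of Phlpp1 and Akt1 0.0020 and −0.12. NPI against N0 and the PI difference could not be fitted there.

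With 1 library left out, Tsc1 in TAg ran from −0.097 to 0.0058, Ddit4 in NPI from −0.82 to 0.10, Pik3r1 from −0.11 to 0.020 in T0 against N0 and from −0.081 to 0.10 in TAg against NAg, and Pik3ip1 there from −0.071 to 0.37. The Ag differences ran from −0.048 to 0.064 for Tsc1, −0.23 to 0.064 for Phlpp1, −0.22 to 0.14 for Sesn1, −0.80 to 0.27 for Ddit4 and −0.030 to 0.15 for Pik3r1, and the PI differences from −0.019 to 0.11 for Inpp5d and −0.025 to 0.083 for Tsc1.

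The replicate numbers did not pair the samples (same-number correlations from −0.486 to 0.237, and the best match had the same number in 22 of 90 cases). The replicate block ended 3 calls, Pik3ip1 in NPI (−0.58, adjusted p = 0.0563), Tsc1 in T0 against N0 (−0.21, 0.0534) and Ddit4 for the PI difference (−1.84, 0.052). With the block 8, 8, 5, 8, 2, 4, 8, 2 and 3 members passed over the 9 comparisons.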

Other observations

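Ratios of members within a library do not depend on the scaling between libraries. The following were chosen after their values were seen, are ratios of normalized counts per kb, and carry no test. Pik3cd to Pik3r1, the catalytic to the regulatory subunit, was 6.24 to 7.90 in TAg, compared with 3.37 to 3.92 in NAg, 3.29 to 4.05 in N0, 3.00 to 3.25 in T0, 2.38 to 3.07 in NPI and 2.18 to 2.42 in TPI. Phlpp1 to Akt1, a phosphatase to its substrate, was 0.955 to 0.985 in NPI and 1.14 to 1.24 in TPI, and between 0.136 and 0.290 in all libraries at rest or after Ag. Pik3cd to its inhibitor Pik3ip1 was 10.2 to 17.4 in NAg, 15.8 to 26.2 in TAg and 10.8 to 14.6 in TPI, and 4.36 to 7.18 at rest and in NPI.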
